A study of Mus musculus with 7 samples.

Results

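The genes of pyruvate dehydrogenase, its kinases, and the tricarboxylic acid (TCA) cycle with its side enzymes were followed in hearts of fasted mice without Krüppel-like factor 15 (KLF15, a DNA-binding transcription factor known for its role in fasting metabolism). A list of 33 gene symbols defined the group. Every probe set that the platform annotation ties to exactly 1 symbol of that list was taken, which gave 50 of the 22626 probe sets on the array, for 27 genes. The symbols Pdhx, Mpc2, Me3, Pdp1, Pdp2 and Pdpr had no such probe set and were not analysed here, so the phosphatases that switch the complex back on are missing. Each gene was read on the probe set with the highest WT mean, and its other probe sets are given beside it.

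Total RNA of whole hearts was hybridised to 7 Affymetrix 3' expression arrays. The wild-type group (WT, 4 arrays) and the KLF15-null group (3 arrays) were both labelled as male C57/BL6 mice, 3 to 4 months old, whose hearts were taken after an 18 h fast. The labels do not say how the null allele was made, and no fed hearts were analysed, so a difference between genotypes cannot be tied to the fast. Nothing in the labels says how the samples of a group relate, so p-values measure the spread between these 7 samples.

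Some facts of the whole series bear on every value below. The arrays went against their sex label: Xist, the RNA that coats the inactive X chromosome of female cells, ranged from 8.57 to 9.94 on the log2 scale on its brightest probe set, while the 7 probe sets of 4 Y-linked genes did not exceed 5.15 on any array. Klf15 itself measured 8.87 ± 0.19 in the 4 WT hearts (SD) and 6.33 ± 0.17 in the 3 KLF15-null hearts (SD), on its single probe set, and whether that lies in the deleted part of the gene was not analysed here. Array medians lay between 6.22 and 6.33, but the 98th percentile was 11.43 to 11.74 on WT and 11.86 to 12.02 on KLF15-null arrays. The heart label was borne out by cardiomyocyte markers, whose summed level was 16.73 to 16.92 in WT and 16.70 to 16.84 in KLF15-null hearts. Of these 9 markers 1 (Actn2) was lower and 0 were higher at an adjusted p below 0.05 in limma's moderated test. Of the 7 leukocyte markers tested 5 were higher, their summed level (log2 of the summed linear signals of 8 markers) ranging from 11.06 to 11.69 in WT and from 12.01 to 12.56 in KLF15-null hearts. Of the neutrophil markers 2 of 2 tested were higher (summed 7.16 to 8.04 in WT, 8.96 to 9.33 in KLF15-null), and of the 5 endothelial markers 2 were lower, Pecam1 at -2.24 and Emcn at -1.44 (summed 10.56 to 10.90 and 9.97 to 10.62). The endothelial markers Kdr (0.46), Tek (0.02) and Cdh5 (-0.14) did not pass that threshold. Of the 5 fibroblast markers 1 was higher (Pdgfra, 0.53) and 1 lower (Dcn, -1.25). Of the 4 smooth muscle markers 1 was lower (Myh11, -1.44), while Acta2 (0.44), Cnn1 (0.21) and Tagln (-0.25) did not pass. The summed level of these 4 was 11.04 to 11.65 in WT and 11.64 to 11.79 in KLF15-null hearts. The 3 adipocyte markers on the array (Adipoq, Cidec and Lep) lay below the filter level of 5.74. In whole hearts, fewer cells of a type and less RNA per cell cannot be told apart, and the part of these marker differences in the values below was not tested.

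Pyruvate dehydrogenase is the mitochondrial complex that turns pyruvate from glycolysis into acetyl-CoA, and so sets how much carbohydrate the heart oxidises. Its kinases phosphorylate the E1α subunit and switch it off, which in fasting spares glucose while fatty acids are burned; Pdk4 is the kinase best known to be induced by fasting. The TCA cycle then oxidises acetyl-CoA through citrate, isocitrate, 2-oxoglutarate, succinyl-CoA, fumarate and malate, with succinyl-CoA ligase existing in an ATP-forming and a GTP-forming version that share the α subunit Suclg1.

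All 27 genes passed the filter on dim probe sets, a mean over the 7 arrays at or above 5.74. In KLF15-null hearts 8 were lower, 7 were higher and 12 did not pass an adjusted p of 0.05 (limma, Benjamini-Hochberg over all 13576 probe sets kept). Over all 8400 genes read the same way, 21.2% were lower and 25.3% higher, so that the numbers of members called lower (8 of 27) and higher (7 of 27) are to be read against a background in which close to every other gene was called (46.5% in either direction). The median difference over the members was -0.08 (KLF15-null minus WT on the log2 scale, as for all differences given here), and over all genes tested it was 0.01. The 3 genes with differences beyond 1 log2 unit, Suclg2, Idh3a and Pdk2, were all lower. Of the 7 higher genes 6 encode mitochondrial enzymes of the cycle, with differences of 0.36 to 0.52, and the other is the cytosolic aconitase Aco1, at 0.93. The 4 complex subunits had 1 lower, the 4 kinases 2 lower, the 15 genes listed with the cycle, cytosolic isozymes included, 3 lower and 7 higher, and the 3 side enzymes 1 lower. The mitochondrial pyruvate carrier subunit Mpc1 was lower as well.

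**Figure D1:**
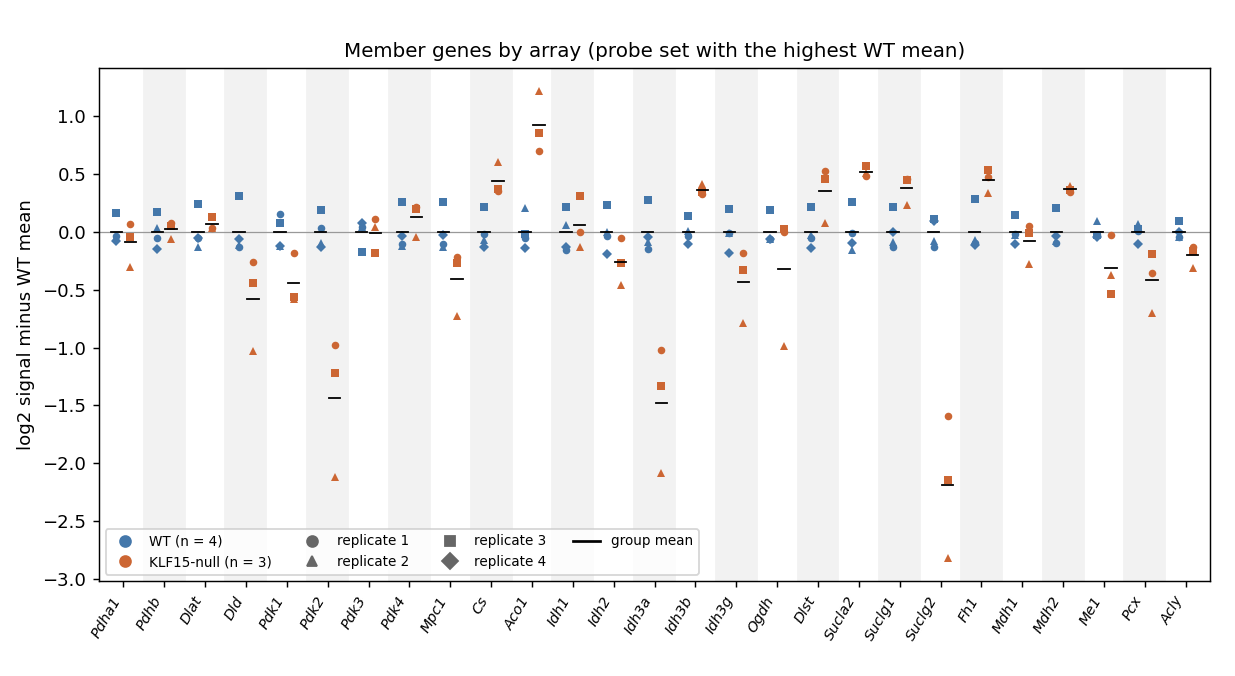
Log2 signal of each of the 27 member genes on each array, minus the gene's WT mean; blue symbols are the 4 WT arrays, orange symbols the 3 KLF15-null arrays, the symbol shape gives the replicate and bars are group means. Suclg2, Idh3a and Pdk2 lie more than 1 log2 unit below WT on average, and KLF15-null replicate 2 (orange triangle) is the lowest array for all 8 genes called lower.

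The promoters of 2 partner pairs that parted between the genotypes are shown here because the pairs return below: Suclg2 and Sucla2, the β subunits of succinyl-CoA ligase, and the kinase genes Pdk2 and Pdk4. They are the 250 bases before the RefSeq transcript start in GRCm38.p6, 5′ to 3′ on the gene's strand. Capitals mark CACCC (the box of Krüppel-like factors) and GGGCGG (the GC box of Sp and Krüppel-like factors) on either strand. The windows are chr6:95718847-95719096 (minus strand) for Suclg2, chr14:73552536-73552785 (plus) for Sucla2, chr11:95041372-95041621 (minus) for Pdk2, the first of its 2 entries, and chr6:5496279-5496528 (minus) for Pdk4.
Suclg2: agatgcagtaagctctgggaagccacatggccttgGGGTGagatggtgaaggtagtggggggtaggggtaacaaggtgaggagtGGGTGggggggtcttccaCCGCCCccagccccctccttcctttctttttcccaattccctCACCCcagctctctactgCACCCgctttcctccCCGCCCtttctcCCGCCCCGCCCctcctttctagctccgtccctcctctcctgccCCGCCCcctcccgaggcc
Sucla2: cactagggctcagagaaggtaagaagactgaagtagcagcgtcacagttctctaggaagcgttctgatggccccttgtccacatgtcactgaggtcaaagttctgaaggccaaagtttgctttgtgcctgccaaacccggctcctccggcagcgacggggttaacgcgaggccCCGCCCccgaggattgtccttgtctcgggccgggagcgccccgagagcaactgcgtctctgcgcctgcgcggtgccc
Pdk2: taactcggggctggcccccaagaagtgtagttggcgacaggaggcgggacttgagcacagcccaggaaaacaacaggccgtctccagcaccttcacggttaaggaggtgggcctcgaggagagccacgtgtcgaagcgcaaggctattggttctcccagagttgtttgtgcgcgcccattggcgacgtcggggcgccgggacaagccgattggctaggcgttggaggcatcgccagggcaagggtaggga
Pdk4: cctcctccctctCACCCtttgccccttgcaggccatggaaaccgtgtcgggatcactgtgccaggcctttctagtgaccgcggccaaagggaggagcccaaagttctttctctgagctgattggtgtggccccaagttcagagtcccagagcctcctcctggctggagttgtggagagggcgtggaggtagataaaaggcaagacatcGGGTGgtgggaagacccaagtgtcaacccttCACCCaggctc
The Suclg2 window held 4 CACCC and 5 GGGCGG matches, 1 pair of the latter sharing a base, the Sucla2 window 0 and 1, the Pdk4 window 3 and 0, and the Pdk2 window 0 of either, although the second Pdk2 entry held 1 CACCC match. Over all 26 measured members with a promoter entry, each read on its first entry, 12 held CACCC and 18 held GGGCGG. Of all 32851 promoter windows of that length, with every entry counted, 52% and 32.7% did. Other entries of Idh1, Ogdh and Pdk2 held CACCC where the first did not, and other entries of Ogdh held GGGCGG. By call, on first entries, CACCC was found in 4 of 7 lower, 2 of 7 higher and 6 of 12 other genes, and GGGCGG in 4 of 7, 5 of 7 and 9 of 12. The letters TCAAGGTCA, an estrogen-related receptor site, and the direct repeat DR1 with its sites spelled without mismatch, a site of PPAR-RXR pairs, occurred in 0 of the 26 windows and in 0.387% and 0.0335% of all windows. A match describes letters in the window and does not show binding, and both receptor motifs contain the same AGGTCA core.

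Among the subunits of the complex itself, only Dld was called lower, with no other subunit called on the probe set brightest in WT. Dld encodes the E3 subunit, the dihydrolipoamide dehydrogenase that the 2-oxoglutarate and branched-chain ketoacid dehydrogenases share. Its log2 signals were 10.17, 10.18, 10.61 and 10.23 on the WT arrays and 10.04, 9.27 and 9.85 on the KLF15-null arrays. All KLF15-null values lay below all WT values, with replicate 2 far under the other 2, and the difference was -0.58 (SE 0.19, adjusted p = 0.0302). The call was lost without KLF15-null replicate 2 or 3, without WT replicate 2, 3 or 4 and with median centring, the adjusted p reaching at most 0.0749 over the 19 alternatives.

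Pdha1, the E1α subunit that the kinases phosphorylate, measured 12.51, 12.50, 12.70 and 12.46 on the WT arrays and 12.62, 12.24 and 12.50 on the KLF15-null arrays on its brightest probe set. The groups overlapped, and the difference was -0.09 (SE 0.12, adjusted p = 0.555) with a 95% interval of -0.35 to 0.17. After quantile and cyclic loess normalization it was called lower, at -0.44 and -0.50 (adjusted p = 0.001 and 0.00037). Its second probe set gave another picture, with 10.88, 10.95, 11.22 and 10.97 on the WT arrays and 9.26, 9.12 and 9.26 on the KLF15-null arrays. There the KLF15-null arrays stood far below WT and close together, a fall of 3.46-fold with a difference of -1.79 (SE 0.12, adjusted p = 3.53e-06). Which Pdha1 transcripts each probe set reads was not analysed here. Pdhb, the E1β subunit, differed by 0.02 and 0.20 on its probe sets (95% intervals -0.21 to 0.26 and -0.05 to 0.44), neither past the threshold. On the first of these it was called lower after quantile and cyclic loess normalization, at -0.35 and -0.37 (adjusted p = 0.00116 and 0.00127). Dlat, the E2 acetyltransferase core, differed by 0.06 and 0.02 on the probe sets that are brighter in WT. On its dimmest probe set it measured 9.97, 10.09, 10.10 and 9.79 on the WT arrays and 10.47, 10.54 and 10.94 on the KLF15-null arrays, without overlap, a difference of 0.67 (SE 0.14, adjusted p = 0.00338). Mpc1, which brings pyruvate into the mitochondrion, measured 11.84, 11.81, 12.20 and 11.92 on the WT arrays and 11.73, 11.22 and 11.68 on the KLF15-null arrays. Its KLF15-null values were all lower, but by little on replicates 1 and 3, and the difference of -0.41 (SE 0.15, adjusted p = 0.0499) lost its call in 11 of 19 alternatives.

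Of the kinases Pdk2 fell, and Pdk4 did not pass the threshold. Pdk2, a kinase expressed broadly with high levels in heart, measured 10.49, 10.36, 10.65 and 10.32 on the WT arrays and 9.48, 8.34 and 9.24 on the KLF15-null arrays. Every KLF15-null array lay well below the lowest WT array, replicate 2 lowest, and the fall was 2.71-fold, a difference of -1.44 (SE 0.24, adjusted p = 0.000806). It kept its direction and its call in all 19 alternatives, with differences from -1.67 to -1.10. Pdk2 has a single probe set, so the alternatives that change the probe set per gene could not change its difference. Pdk4 measured 13.06, 13.04, 13.42 and 13.13 on the WT arrays and 13.38, 13.12 and 13.36 on the KLF15-null arrays. The groups overlapped, the difference was 0.13 (SE 0.12, adjusted p = 0.413), and its 95% interval of -0.15 to 0.40 spans 0. After cyclic loess normalization, however, Pdk4 was called lower by 0.34 on the log2 scale (adjusted p = 0.0018), and with array weights it was called higher by 0.24 (adjusted p = 0.0464). After quantile normalization its difference was -0.13 (adjusted p = 0.188), so its direction was not settled.

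Pdk1, the kinase known as a target of hypoxia-inducible factor, had probe sets that went opposite ways. On the one brightest in WT its signals were 8.86, 8.59, 8.78 and 8.59 on the WT arrays and 8.52, 8.12 and 8.14 on the KLF15-null arrays, lower without overlap, a difference of -0.44 (SE 0.13, adjusted p = 0.0189). On the other, whose WT mean was 8.62 against 8.70, they were 8.60, 8.67, 8.59 and 8.64 on the WT arrays and 9.10, 9.48 and 9.15 on the KLF15-null arrays, higher without overlap by 0.62 (SE 0.12, adjusted p = 0.00153). The direction of Pdk1 is therefore not settled by this array. Pdk3, another kinase of the family, measured 5.83, 5.83, 5.62 and 5.86 on the WT arrays and 5.90, 5.83 and 5.60 on the KLF15-null arrays. These values sit at the filter level, the groups overlapped, and the difference was -0.01 (SE 0.10, adjusted p = 0.96).

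The first steps of the cycle showed no common direction. Citrate synthase (Cs), which joins acetyl-CoA to oxaloacetate, measured 12.47, 12.41, 12.71 and 12.36 on the WT arrays and 12.84, 13.09 and 12.86 on the KLF15-null arrays on its brightest probe set. All KLF15-null values were higher, by 0.44 (SE 0.12, adjusted p = 0.0104). Its other 2 probe sets had the opposite sign, at -0.31 (SE 0.13, adjusted p = 0.067) and -0.65 (SE 0.16, adjusted p = 0.00631), and the last one was called lower. Aco1, the cytosolic aconitase that also acts as the iron-responsive protein IRP1, measured 8.58, 8.84, 8.61 and 8.49 on the WT arrays and 9.33, 9.85 and 9.48 on the KLF15-null arrays on an _x_at probe set, whose suffix marks probes that can cross-hybridise. It was higher by 0.93 (SE 0.14, adjusted p = 0.000544) there, and its gene-specific probe set differed by -0.13 (SE 0.09, adjusted p = 0.234), and did not pass the threshold.

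NAD-dependent isocitrate dehydrogenase (IDH3), a heterooligomer of α, β and γ subunits and a control point of the cycle, had a lower level of its catalytic α subunit transcript. Idh3a measured 11.85, 11.91, 12.27 and 11.95 on the WT arrays and 10.98, 9.91 and 10.67 on the KLF15-null arrays. All KLF15-null values lay below all WT values, replicate 2 lowest, and the fall was 2.79-fold, -1.48 (SE 0.23, adjusted p = 0.000502). Its other 2 probe sets fell as well, by 2.80-fold and 2.07-fold, so that all 3 were called lower. The call held in all 19 alternatives, with differences from -1.81 to -1.05. Idh3b, the β subunit, went the other way, with 10.68, 10.73, 10.86 and 10.61 on the WT arrays and 11.05, 11.13 and 11.07 on the KLF15-null arrays. All KLF15-null values were higher, by 0.36 (SE 0.10, adjusted p = 0.0156), and a dimmer probe set was higher by 0.998 (SE 0.17, adjusted p = 0.000962). Idh3g, the regulatory γ subunit, was called lower on its brightest probe set at -0.43 (SE 0.16, adjusted p = 0.0424), where the highest KLF15-null and the lowest WT array both measured 11.89. It was called higher on the other at 0.48 (SE 0.12, adjusted p = 0.00766), although the WT means of the probe sets were 12.07 and 11.95.

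The NADP-dependent isozymes, which supply NADPH, were not called on their brightest probe sets. Idh2 of the mitochondrion differed by -0.26 (SE 0.13, adjusted p = 0.135), and was called lower after quantile and cyclic loess normalization, at -0.61 and -0.67 (adjusted p = 0.000336 and 0.000132). Idh1 of the cytosol differed by 0.06 (SE 0.14, adjusted p = 0.747), and by -1.06 (SE 0.27, adjusted p = 0.00946) on a dimmer probe set, where KLF15-null replicate 2 stood at 5.68 and the other 2 at 6.67 and 7.10. Ogdh, the E1 subunit of the 2-oxoglutarate dehydrogenase complex, measured 11.58, 11.58, 11.84 and 11.58 on the WT arrays and 11.64, 10.66 and 11.67 on the KLF15-null arrays. Among the KLF15-null arrays replicate 2 alone was low, and without it the difference of -0.32 (SE 0.23, adjusted p = 0.269) became 0.01. After quantile and cyclic loess normalization Ogdh was called lower, at -0.72 and -0.65 on the log2 scale (adjusted p = 0.00958 and 0.0131). Dlst, the E2 subunit of the same complex, differed by 0.35 (SE 0.14, adjusted p = 0.0614) on its brightest probe set and by -0.37 (SE 0.11, adjusted p = 0.0154) on a dimmer one.

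Succinyl-CoA ligase showed the largest contrast between partners. Suclg2, the β subunit of the GTP-forming version, measured 8.27, 8.32, 8.51 and 8.50 on the WT arrays and 6.81, 5.58 and 6.26 on the KLF15-null arrays. The 3 KLF15-null values spread over more than 1 log2 unit, all far below WT, and replicate 2 fell under the filter level, the level used to leave out dim probe sets. The fall was 4.54-fold, -2.18 (SE 0.24, adjusted p = 6.05e-05), and it was called in all 19 alternatives with differences from -2.48 to -1.87. Sucla2, the β subunit of the ATP-forming version, measured 11.58, 11.43, 11.84 and 11.50 on the WT arrays and 12.07, 12.10 and 12.16 on the KLF15-null arrays. The KLF15-null values lay close together above all WT values, higher by 0.52 (SE 0.12, adjusted p = 0.00477). Suclg1, the shared α subunit, measured 11.36, 11.40, 11.70 and 11.49 on the WT arrays and 11.94, 11.72 and 11.93 on the KLF15-null arrays. It too was higher without overlap, by 0.38 (SE 0.12, adjusted p = 0.0239). Each of these 3 genes has a single probe set.

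On the deposited values fumarase and mitochondrial malate dehydrogenase, the listed mitochondrial enzymes of the last steps, were higher. Fh1, the fumarase, measured 11.70, 11.73, 12.08 and 11.69 on the WT arrays and 12.28, 12.13 and 12.34 on the KLF15-null arrays, and was higher by 0.45 (SE 0.12, adjusted p = 0.0134). Mdh2, the mitochondrial malate dehydrogenase, measured 12.88, 12.89, 13.18 and 12.94 on the WT arrays and 13.32, 13.37 and 13.34 on the KLF15-null arrays, and was higher by 0.37 (SE 0.10, adjusted p = 0.0121), with its second probe set at 0.31 (SE 0.10, adjusted p = 0.0292). In both genes the groups did not overlap. Neither was called after quantile normalization (Fh1 0.04, Mdh2 0.07) or cyclic loess normalization (Fh1 0.08, Mdh2 -0.09). Mdh1, the cytosolic malate dehydrogenase of the malate-aspartate shuttle, differed by -0.08 (SE 0.11, adjusted p = 0.574) on its brightest probe set. There it was called lower after quantile and cyclic loess normalization, at -0.30 and -0.55 (adjusted p = 0.0128 and 0.000176). Its _x_at probe sets were called higher, at 0.26 and 0.53, and its remaining probe set lay below the filter level.

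Of the side enzymes only pyruvate carboxylase was called on the probe set brightest in WT, on the deposited values. Pcx, which refills oxaloacetate from pyruvate, measured 7.22, 7.29, 7.24 and 7.11 on the WT arrays and 6.87, 6.52 and 7.03 on the KLF15-null arrays. The KLF15-null values were lower without overlap, although replicate 3 came close to WT, and the difference was -0.41 (SE 0.12, adjusted p = 0.0183). Me1, the cytosolic malic enzyme that makes NADPH, differed by -0.31 (SE 0.13, adjusted p = 0.0776) and, on a dimmer probe set, fell 2.22-fold (adjusted p = 0.000357). Acly, the ATP-citrate lyase that exports acetyl-CoA for lipid synthesis, differed by -0.20 (SE 0.10, adjusted p = 0.106) on its brightest probe set. An _x_at probe set of Acly measured 6.53, 6.57, 6.92 and 6.78 on the WT arrays and 8.22, 9.15 and 8.71 on the KLF15-null arrays, a rise of 1.99 (SE 0.20, adjusted p = 3.58e-05). A further gene-specific one measured 6.47, 6.52, 6.52 and 6.75 on the WT arrays and 5.32, 5.41 and 5.30 on the KLF15-null arrays, lower with a difference of -1.22 (SE 0.09, adjusted p = 6.48e-06). Both of these separated the groups fully, in opposite directions, and 2 more _x_at probe sets of Acly lay below the filter level.

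**Figure D2:**
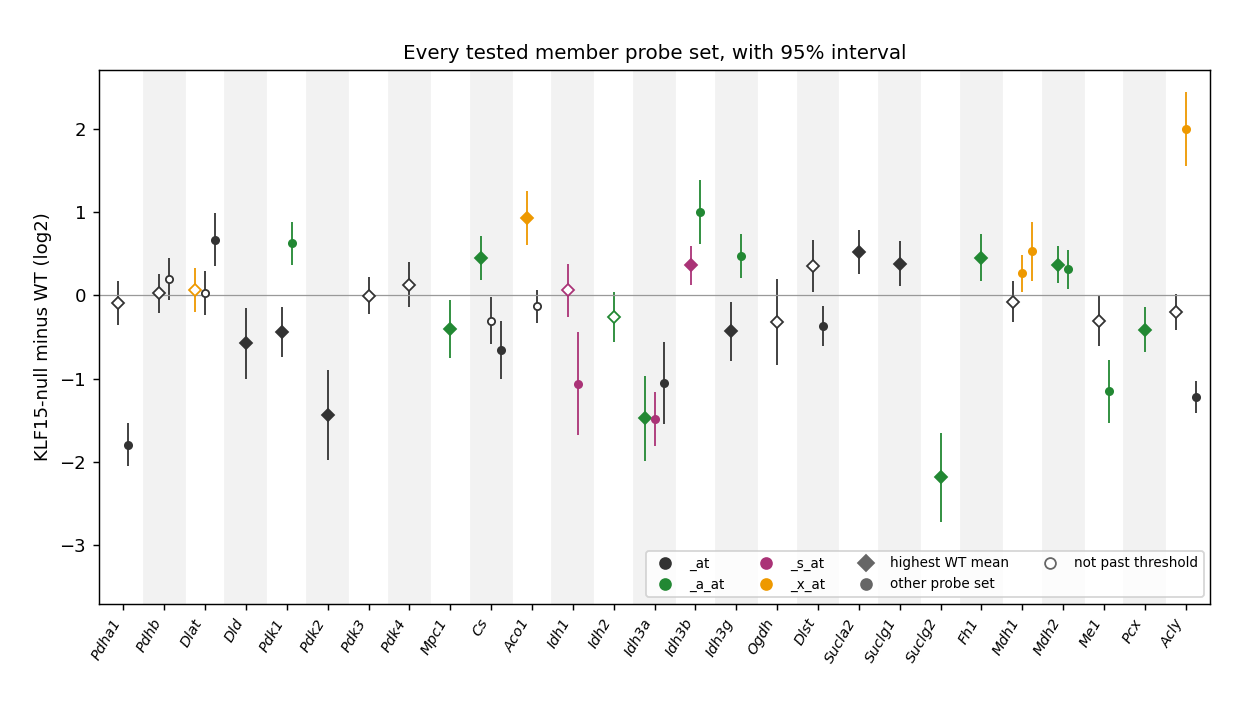
Difference between KLF15-null and WT means (log2) with its 95% interval from limma for each of the 47 member probe sets tested; diamonds are the probe set with the highest WT mean, colours give the suffix of the probe set and open symbols did not pass an adjusted p of 0.05. Pdk1, Cs, Idh3g and Acly each have filled symbols on both sides of 0, while all 3 probe sets of Idh3a lie below 0.

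Counted as probe sets, 47 of the 50 were bright enough to test, 16 of them lower, 15 higher and 16 not past the threshold, where 23.8% of all probe sets tested were lower and 26.8% higher (50.6% in either direction). The groups did not overlap for the 7 genes called higher, for 7 of the 8 called lower (not for Idh3g) and for Acly, which was lower on every KLF15-null array without passing the threshold, against 49.4% of all genes and 53.0% of all probe sets in either direction. Of the 15 genes with at least 2 tested probe sets, 4 (Pdk1, Cs, Idh3g and Acly) had calls in opposite directions, 7 had a called and an uncalled one and 4 had the same call on each. Opposite calls were found for 21% of the 2748 genes of the whole array with at least 2 tested probe sets. The within-array difference between a gene's brightest probe set and each of its others shifted between the genotypes in 14 of 20 cases, by an exact two-sided permutation test over 35 splits (p = 0.0286, the smallest they allow, adjusted p = 0.0408). Such differences were not counted over the other genes of the array, so whether 14 of 20 is particular to the members is not known. The suffix of the probe set moved with direction. Of 5 _x_at member probe sets 4 were higher and 0 lower, while of 25 _at ones 3 were higher and 9 lower. Over the whole array, 60.5% of the _x_at probe sets were higher and 7.91% lower, against 20.5% and 25.0% of the _at ones. Of 13 _a_at member probe sets 7 were higher and 5 lower (29.9% and 28.5% over the array), and of 4 _s_at ones 1 and 2 (37.3% and 17.9%). The part of the suffix in the members' differences was not tested. Without _x_at probe sets the members had 6 genes higher and 8 lower, and 11 probe sets higher and 16 lower. Of all genes 23.9% were then higher and 21.9% lower. Only Dlat and Aco1 had an _x_at probe set as the one brightest in WT, so the gene counts had little room to change.

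Partner subunits and isozymes were also compared within each array, since such a difference does not move with a shift of the whole array. It can still move with a scaling that depends on signal level, where the partners differ in brightness. Of the 8 pairs planned, 7 could be formed (Mpc2 was missing), and in 5 of them the groups did not overlap (exact two-sided permutation p = 0.0286, the smallest that 35 splits of 7 arrays allow, adjusted p = 0.04 over the 7 pairs). In Suclg2 minus Sucla2 and Idh3a minus Idh3b the first gene was lower and the second higher, each without overlap. Their separation was therefore fixed by the values above and adds no support to them. Differences between probe sets of the same gene separated the groups in 16 of 20 cases, so the number of separated pairs is not particular to partners. Suclg2 minus Sucla2 was -3.31, -3.12, -3.33 and -3.0 on the WT arrays and -5.26, -6.52 and -5.90 on the KLF15-null arrays, a shift of -2.71. Idh3a minus Idh3b shifted by -1.84 and Idh3a minus Idh3g by -1.04, so the α subunit transcript fell relative to both partners on these probe sets. Pdk4 minus Pdk2 was 2.57, 2.69, 2.78 and 2.81 on the WT arrays and 3.90, 4.79 and 4.13 on the KLF15-null arrays. The shift was 1.56, with Pdk2 called lower and Pdk4 not called. After quantile and cyclic loess normalization this shift was 1.52 and 1.31. Mdh2 minus Mdh1 shifted by 0.45, all 3 KLF15-null arrays above all WT arrays, on the Mdh1 probe set that was not called, whereas other Mdh1 probe sets were called higher. Idh2 minus Idh1 (-0.32, exact permutation p = 0.0857, adjusted p = 0.1) and Pdha1 minus Pdhb (-0.11, exact permutation p = 0.171, adjusted p = 0.171) overlapped between the groups. After quantile and cyclic loess normalization Idh2 minus Idh1 shifted by -0.53 and -0.59, and the groups did not overlap. The absolute size of such a difference depends on the probes and says nothing about which partner is more abundant.

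**Figure D3:**
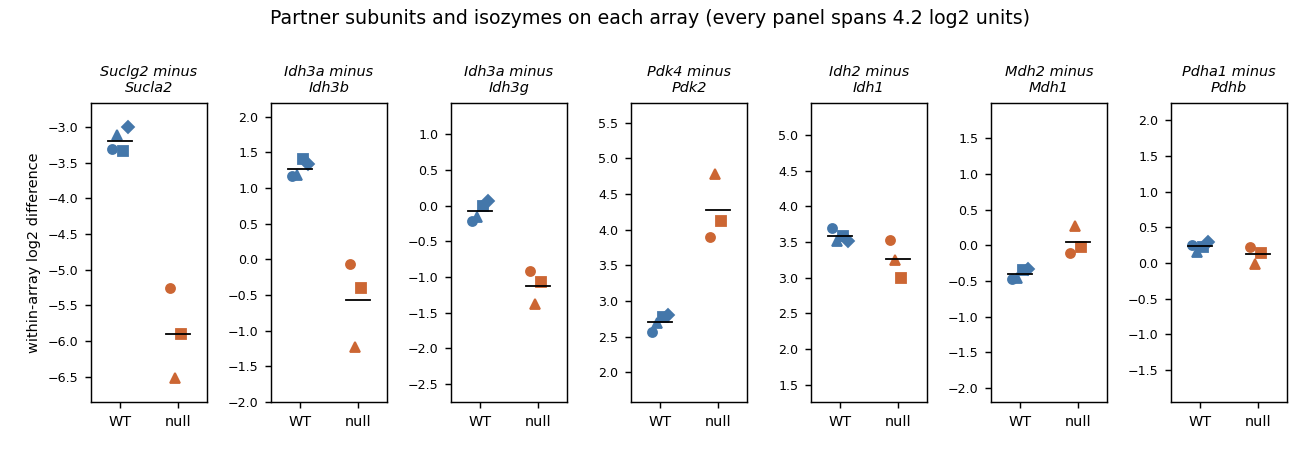
Log2 signal of the first gene minus that of the second on the same array, for 7 pairs of partner subunits or isozymes; blue symbols are the 4 WT arrays, orange symbols the 3 KLF15-null arrays, symbol shape is the replicate and bars are group means. The groups do not overlap for Suclg2 minus Sucla2, Idh3a minus Idh3b, Idh3a minus Idh3g, Pdk4 minus Pdk2 and Mdh2 minus Mdh1.

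The modest rises depended on how the arrays were scaled, whereas the 3 large falls did not. After quantile normalization 1 member gene was higher and 14 lower, and after cyclic loess normalization 1 and 16, against 7 and 8 on the deposited values. Over all genes 25.6% were higher and 23.7% lower after quantile normalization, and 24.4% and 25% after cyclic loess normalization. The gene that stayed higher was Aco1. Pdha1, Pdhb, Idh2, Ogdh, Mdh1 and Me1 were called lower under both, and Pdk4 and Acly under cyclic loess alone. The differences of Cs, Idh3b, Sucla2, Suclg1, Fh1 and Mdh2 came to between -0.09 and 0.17 under these scalings and none was called. Suclg2 minus Sucla2 still shifted by -2.28 and -2.31 and Idh3a minus Idh3b by -1.77 and -1.87 under them. The members are among the brighter genes, 15 of the 27 having a WT mean of log2 11 or more, a level chosen after the values were seen. Of these 15 genes 5 were higher and 3 lower with a median difference of 0.02, while of all 380 genes that bright 133 were higher and 66 lower, with a median of 0.16. Of the 12 dimmer members 2 were higher and 5 lower with a median of -0.26, against 0.00 over all 8020 dimmer genes tested.

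**Figure D4:**
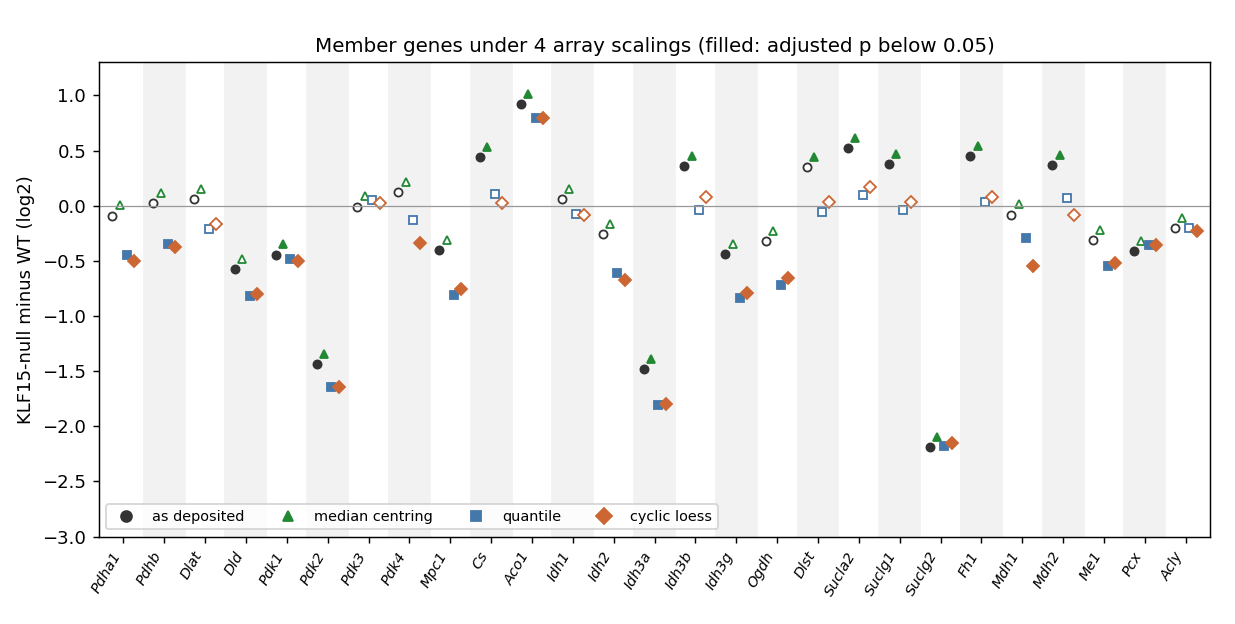
Difference between KLF15-null and WT means (log2) of each member gene with the arrays as deposited, centred on their medians, quantile normalized and normalized by cyclic loess; filled symbols passed an adjusted p of 0.05. Pdk2, Idh3a and Suclg2 stay below -1 under all 4, while Cs, Idh3b, Sucla2, Suclg1, Fh1 and Mdh2 move from above 0.3 to near 0 after quantile or cyclic loess normalization.

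One KLF15-null array carried the extremes of the falls. Replicate 2 was the lowest of the 7 arrays for all 8 member genes called lower and for 14 of the 16 member probe sets called lower, against 58.8% of all 1780 genes and 53.1% of all 3235 probe sets called lower. It was the highest array for 8 of the 15 member probe sets called higher, against 43.2% of all probe sets called higher. Without it 5 member genes were lower and 8 higher, where 19.7% of all genes were lower and 28.2% higher. Pdk2, Idh3a and Suclg2 stayed called without it, with differences of -1.10, -1.17 and -1.87. RNA quality values per array were not analysed here, and what set this array apart was not tested.

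Of a list of 26 neighbouring enzymes, carriers and lipoylation genes 20 had a probe set and 19 were tested, with 7 lower, 0 higher and 12 not past the threshold by limma (8 lower and 2 higher at an unadjusted p below 0.05; 0 to 4 higher over the alternatives), where 21.2% of all genes tested were lower and 25.3% higher. Their median difference was -0.19. Slc25a11, the 2-oxoglutarate-malate carrier, differed by -1.76 (SE 0.23, adjusted p = 0.00017). Got1, the cytosolic aspartate aminotransferase, differed by -1.72 (adjusted p = 0.00168). Both belong to the malate-aspartate shuttle. Lipt2 and Lias, which make the lipoyl group of Dlat and Dlst, differed by -0.54 and -0.60 (adjusted p = 0.00245 and 0.00614). These counts rest on the probe set brightest in WT, and 5 dimmer ones of 4 genes were called higher. They were those of Sdhd at 0.64 and Nnt at 0.71, both lower on the brightest, of Sdha at 0.43, and of Ldhb at 0.34 and 0.68. Dimmer ones of Got2 at -3.78, Sdhc at -1.33, Glud1 at -1.08 and Slc25a10 at -0.23 were called lower. Among these genes only Glud1 was called lower on the brightest. Of 16 regulators of oxidative genes 14 were tested, 6 lower and 2 higher, with a median of -0.30, against the same shares of all genes. Ppargc1a, a coactivator of mitochondrial genes, differed by -1.80 (adjusted p = 1.41e-05), and 2 dimmer probe sets of it were called lower as well while 2 others, at -0.18 and 0.04, did not pass the threshold. Ppara, the fatty acid sensor known to act on Pdk4, differed by -2.13 (adjusted p = 3.61e-05), while Pdk4 was not called. Hif1a, the hypoxia-inducible factor subunit, was higher by 1.38 (adjusted p = 8.14e-06). A dimmer probe set of Hif1a was called higher by 1.15, and others below the filter level, not tested, differed by -0.89 and -0.07. Rxrg, a retinoid X receptor, differed by -0.70 (adjusted p = 0.000951). The regulator counts also rest on the probe set brightest in WT. Dimmer ones of Foxo1 at -0.76 and Rxra at -0.27 were called lower, although neither gene was called on its brightest. Dimmer tested ones of Foxo3 at -0.26, Nr3c1 at -0.13 and Esrrb at 0.00 did not pass, although these genes were called on the brightest.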

How the data were processed

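Per the labels' protocols, total RNA of flash-frozen hearts was extracted with Trizol and labelled with the Affymetrix one-cycle 3' kit. The authors deposited log2 signals per probe set (unit read from the values, 3.20 to 14.28); GCOS is named in the submitters' processing notes with no role or version, and how signals were summarized and scaled is not given in the sources used. Of 22626 probe sets 20380 had 1 symbol, 691 several and 1555 none in the platform annotation. A filter at the 40th percentile of the 7-array means (log2 5.74) left 13576. The 3 KLF15-null and 4 WT arrays entered 1 fit in limma (version 3.58.1, R version 4.3.3), two-sided, with an intensity trend and no covariate. P-values were adjusted by Benjamini and Hochberg's method across these probe sets, at a threshold of 0.05, and each gene's adjusted p comes from this fit. The number of arrays limits the precision. The procedure was tested on simulated data.

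Arrays with the same replicate number were checked for pairing: the correlations of their deviations from the group means were -0.11, 0.00 and 0.19, which gave no basis for pairing them. All members were accounted for; full values were given for called members whose groups did not overlap and for the Pdk genes, and for other members chosen after their values were seen (Pdha1, Dlat, Ogdh and Acly). Of the other lists up to 4 genes by smallest p were named. The members and lists were chosen with earlier results of these data known. Promoters came from RefSeq (GRCm38.p6), which held 31 of the 33 symbols. Alternatives were the filter, scaling, trend, array weights, replicate block, each array left out and the probe set per gene, and, chosen after seeing the data, leaving out _x_at probe sets.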

Additional observations from a re-analysis of the deposited data

Results flagged for a closer look

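Among the 4 WT arrays, 5 of 28 genes checked (27 members and Klf15) had 1 array far from the other 3, by a criterion that chance meets for about 1 in 20 groups. WT replicate 3 was the array in 4 of the 5. It was highest for Dld at 10.61 (others 10.17 to 10.23), for Ogdh at 11.84 (others 11.58) and for Fh1 at 12.08 (others 11.69 to 11.73). It was lowest for Pdk3 at 5.62 (others 5.83 to 5.86). WT replicate 2 was highest for Me1 at 10.10 (others 9.96 to 9.97). WT replicate 3 was the highest WT array for 22 of the 27 member genes, and it also had the highest 98th percentile of the WT arrays, 11.74 against 11.43 to 11.49. How often it was the highest WT array over all genes was not counted, and its part in the members' values was not tested.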

How the results depend on the processing

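Suclg2, Idh3a and Pdk2 were past the threshold in the same direction under all 19 alternatives, and the other 12 called members were not. Suclg2 and Pdk2 have a single probe set each, so the choice of probe set could not change their differences. With quantile normalization the members had 1 gene higher and 14 lower (probe sets 5 higher) with a median difference of -0.30. With cyclic loess normalization they had 1 and 16 (probe sets 5 and 25) with a median of -0.36. The neighbouring list had 12 lower under each. Over all genes 25.6% were higher and 23.7% lower with quantile normalization, and 24.4% and 25% with cyclic loess normalization. With median centring, which moved the median of all probe sets from 0.00 to 0.09 and the share of higher calls from 52.9% to 63.3%, 4 members were lower and 2 neighbouring genes higher. Under it 16.1% of all genes were lower and 31.9% higher. Array weights gave 4 neighbouring genes and 4 regulators higher, where 33.8% of all genes were higher. When all probe sets of a gene were averaged the neighbouring list had 1 gene higher, and 1 with the probe set brightest over 7 arrays. With gene-specific probe sets preferred 1 regulator was higher. Of all genes 24.3%, 27.4% and 21.7% were higher under these settings, in that order. The replicate block, which leaves WT replicate 4 without a partner and so drops it from the genotype difference, gave 3 members and 9 member probe sets higher. Of all genes 20.5% were higher with this block. The cause of these changes was not tested.

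Leaving out 1 array at a time, 4 to 9 members were lower (4 without KLF15-null replicate 3 or WT replicate 2, 5 without KLF15-null replicate 2, WT replicate 1 or WT replicate 3), 5 to 8 higher, 11 to 18 member probe sets lower and 10 to 16 higher. Over all genes 17.6% to 22.5% were lower and 21.2% to 28.2% higher in these fits. The neighbouring list then had 0 to 2 higher.

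Directions turned as follows: with cyclic loess Pdhb to -0.37, Pdk4 to -0.34 and Mdh2 to -0.087; with quantile normalization Pdhb to -0.35, Idh3b to -0.0382 and Suclg1 to -0.0363; with the mean of probe sets Pdk1 to 0.0904, Cs to -0.17 and Idh3g to 0.0207; with the probe set brightest over 7 arrays Pdk1 to 0.62 and Idh3g to 0.48; with gene-specific probe sets Cs to -0.31 and Aco1 to -0.13; and without _x_at probe sets Aco1 to -0.13. A sign change that was past the threshold under neither setting occurred in 27 further cases over 10 genes. The table holds no detection calls, so signal over background was not measured.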
